A study of Mus musculus with 8 samples.

Results

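The EGF receptor family and its ligands were followed in IMCD, a cell line of mouse inner medullary collecting duct, the last stretch of the renal tubule. The genes were the rows of the raw count table with the symbol Egfr, Erbb2, Erbb3, Hbegf, Areg, Ereg, Tgfa, Btc or Errfi1. All 9 were in the table of 15288 genes, and all 9 passed the filter on low counts that left 14024 genes. The control group (4 libraries, numbered 1 to 4 by the labels) was held for 12 h in DMEM free of FBS, and the NaCl group (4 libraries, numbered 5 to 8) in the same medium with 100 mmol of added NaCl, an amount the labels give without a volume. No genotype or further agent is named, both groups had grown with FBS before, and nothing says that the libraries came from separate cultures, so p-values measure the spread between these libraries, which may be technical.

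EGF-type ligands are made as membrane-anchored precursors and are cut loose at the cell surface by metalloproteases. A released ligand joins receptors into pairs whose kinase domains phosphorylate each other, which feeds the RAS-ERK and PI3K-AKT cascades. ERBB2 has no known ligand of its own and ERBB3 has little kinase activity, so both work mainly as partners. ERRFI1, also called MIG6, is made in response to receptor signalling, binds the kinase domain and shuts it down. In the kidney, the pathway is known for its part in tubular growth and repair.

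With NaCl, 2 of the 9 genes changed, and both fell. Areg, which encodes the ligand amphiregulin, fell by 1.04 on the log2 scale, and the inhibitor gene Errfi1 fell by 0.35. No gene of the group rose, and none of the 3 receptor genes passed the test. Over all genes tested, 34.1% were called at an adjusted p-value below 0.05 by the quasi-likelihood test of edgeR and 17.2% were called lower. With 2 of 9 called, both lower, the group lay below the first share and near the second. The median log2 fold change (NaCl over control) of the 9 genes was -0.09, beside 0.0029 for all genes tested.

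Promoters of the genes that fell are shown because the same short elements stand near 1 start of each. For Errfi1 this start lies inside the annotated span of the gene. A further Errfi1 start, just before that span, had none of these elements. The window was chosen for its matches, and which start the cells use was not tested. Each is the stretch of 250 bases before a RefSeq start on GRCm38.p6, plus strand, 5′ to 3′. Capitals mark matches, on either strand, to the CRE palindrome TGACGTCA, the TATA element TATAAA or the GC box GGGCGG.
Areg, chr5:91139349-91139598: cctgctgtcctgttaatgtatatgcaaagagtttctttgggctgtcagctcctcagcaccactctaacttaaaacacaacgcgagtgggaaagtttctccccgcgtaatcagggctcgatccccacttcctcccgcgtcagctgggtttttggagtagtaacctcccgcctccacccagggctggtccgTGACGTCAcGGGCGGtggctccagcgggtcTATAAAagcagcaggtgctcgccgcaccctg
Errfi1, chr4:150854820-150855069: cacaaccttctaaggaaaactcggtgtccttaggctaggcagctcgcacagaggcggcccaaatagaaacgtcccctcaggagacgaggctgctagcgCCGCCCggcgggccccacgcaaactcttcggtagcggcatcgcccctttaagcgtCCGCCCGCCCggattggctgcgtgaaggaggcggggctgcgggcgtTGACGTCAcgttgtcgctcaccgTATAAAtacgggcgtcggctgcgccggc

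In Areg the CRE palindrome, the sequence that CREB-family factors are known to bind, lay 61 to 54 bases before the start and the TATA element 31 to 26 bases before it. In Errfi1 they lay 51 to 44 and 28 to 23 bases before the start shown, the one inside the gene span. Of 32851 mouse promoter windows of this length, 1.55% held the CRE palindrome, 12.4% the TATA element and 32.7% a GC box. The RefSeq table also gave windows for Btc, Tgfa, Egfr and Erbb2, and a further start of Errfi1, 6 of the 9 genes in all. None of those other windows held the CRE palindrome or the TATA element. A GC box was found in the Tgfa and Egfr windows, and a TEAD element (GGAATG, either strand) in the Erbb2 window and at the further start of Errfi1. The TEAD element occurred in 12.6% of all windows. The AP-1 element TGANTCA, held by 6.75% of all windows, the NFAT5 element TonE, held by 4.31%, and the serum response CArG element, held by 1.47%, had no match in the windows of these genes. A match is a run of letters, and no binding was measured here.

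Library depth lay between 41.77 and 47.57 M counts in the control group and between 35.29 and 42.39 M in the NaCl group. Levels are given as counts per M counts (CPM), with the totals scaled by TMM factors. The labelled cell type was checked on marker lists. Of 10 renal epithelial markers 9 were in the table, with a summed level of 1487 to 1883 CPM in control and 2489 to 2765 CPM in NaCl libraries. All 10 principal cell markers were present, at 137 to 165 and 108 to 116 CPM, but nearly all of this came from Tfcp2l1. Aqp2, the water channel that defines these cells, was covered by 0, 1, 3 and 0 reads in the controls and by 12, 8, 15 and 14 reads with NaCl, and Cdh1, the epithelial cadherin, averaged 0.195 and 0.535 CPM. Of 6 fibroblast markers 5 were present at 2747 to 3167 and 2446 to 2816 CPM, led by Col1a1 with means of 2492 and 2148 CPM. They moved in both directions, as Pdgfrb averaged 37.5 and 61.1 CPM. Of 6 leukocyte markers 3 were present, at 11.05 to 15.5 and 20.1 to 24.9 CPM, and Cd3e, Adgre1 and Itgam were not among the rows analysed here. Endothelial markers (2 of 5) stayed at or under 0.870 CPM, and the intercalated cell marker Atp6v0d2, the only member of 6 in the table, went from 1.45 to 2.22 CPM in control to 0.194 to 0.449 CPM in NaCl libraries. Proximal tubule markers (3 of 5) lay at 162 to 205 and 155 to 177 CPM. Nearly all of this came from Lrp2, with means of 185 and 162 CPM, while Cubn averaged 2.16 and 2.45 CPM. The epithelial, principal cell, intercalated cell and leukocyte sums did not overlap between the groups, as Areg and Errfi1 did not, and their part in the results was not tested. In such bulk samples fewer cells of a kind and less RNA per cell cannot be told apart.

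The levels of the 9 genes differed widely per length of transcript. Per kilobase (kb) of merged exons, Errfi1 was highest in the control group at 31.5 ± 1.35 CPM per kb (SD, n = 4). Hbegf followed at 21.1 ± 2.83, and Erbb2 stood at 17.6 ± 1.09 CPM per kb. The ranges of Hbegf and Erbb2 met within their spread, so their order is not settled. Egfr had 7.65 ± 0.473 and Erbb3 3.28 ± 0.269 CPM per kb. The remaining ligands were scarce, with 2.24 ± 0.336 CPM per kb for Areg, 0.616 ± 0.0202 for Btc, 0.550 ± 0.0476 for Ereg and 0.0883 ± 0.0212 for Tgfa (SD, n = 4 each). The control ranges of Btc and Ereg overlapped, so these also have no settled order. Using the longest transcript as the length left the order of the means the same for all 9 genes, but changed which neighbours overlapped. Errfi1 then had 35.8 to 39.4 and Hbegf 29.3 to 39.2 CPM per kb in control, so that which of them is highest is not settled, while Hbegf and Erbb2, and Btc and Ereg, no longer overlapped.

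**Figure D1:**
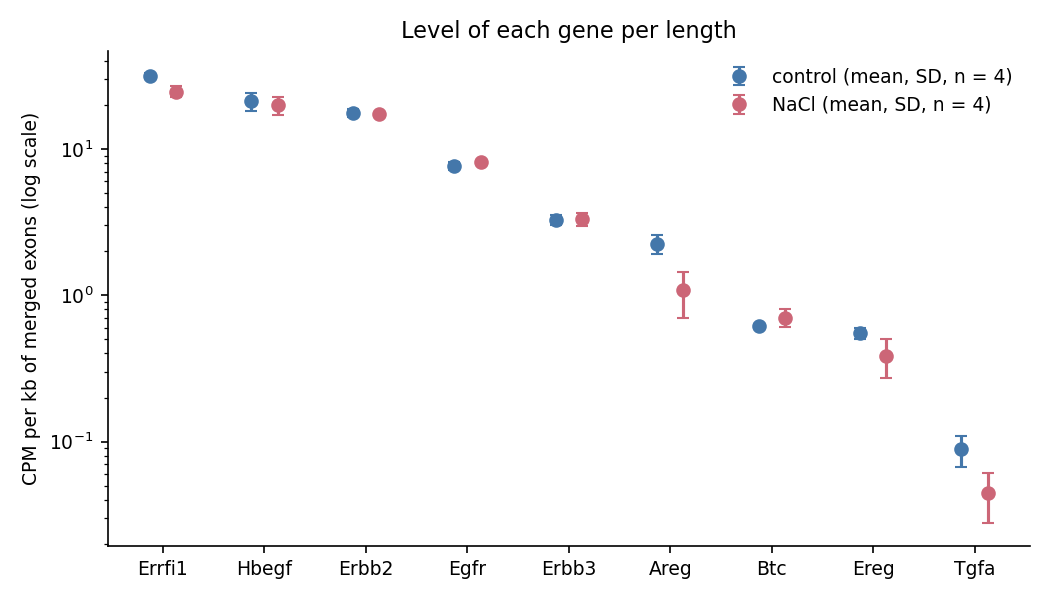
Level of each gene in CPM per kb of merged exons on a log axis, as the mean with its SD over the 4 control and the 4 NaCl libraries. Errfi1, Hbegf and the receptor genes lie above Areg, Btc, Ereg and Tgfa, and Tgfa is lowest at 0.0883 CPM per kb in control.

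Among the 3 receptors the make-up was much the same in both groups. Erbb2 took 60.5 to 62.7% of their summed level per kb in control and 59.4 to 61.6% in NaCl libraries. Egfr took 25.0 to 28.4% and 27.7 to 28.3%, and Erbb3 11.1 to 12.3% and 10.2 to 12.3%. Among the 5 ligands, Hbegf made up 83.2 to 87.9% of the summed level in control and 88.3 to 90.96% in NaCl libraries. The share of Areg was 7.34 to 11.3% in control and 2.89 to 5.60% in NaCl libraries. The shares of Hbegf and Areg did not overlap between the groups, and no test was made of a sum over these genes.

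**Figure D2:**
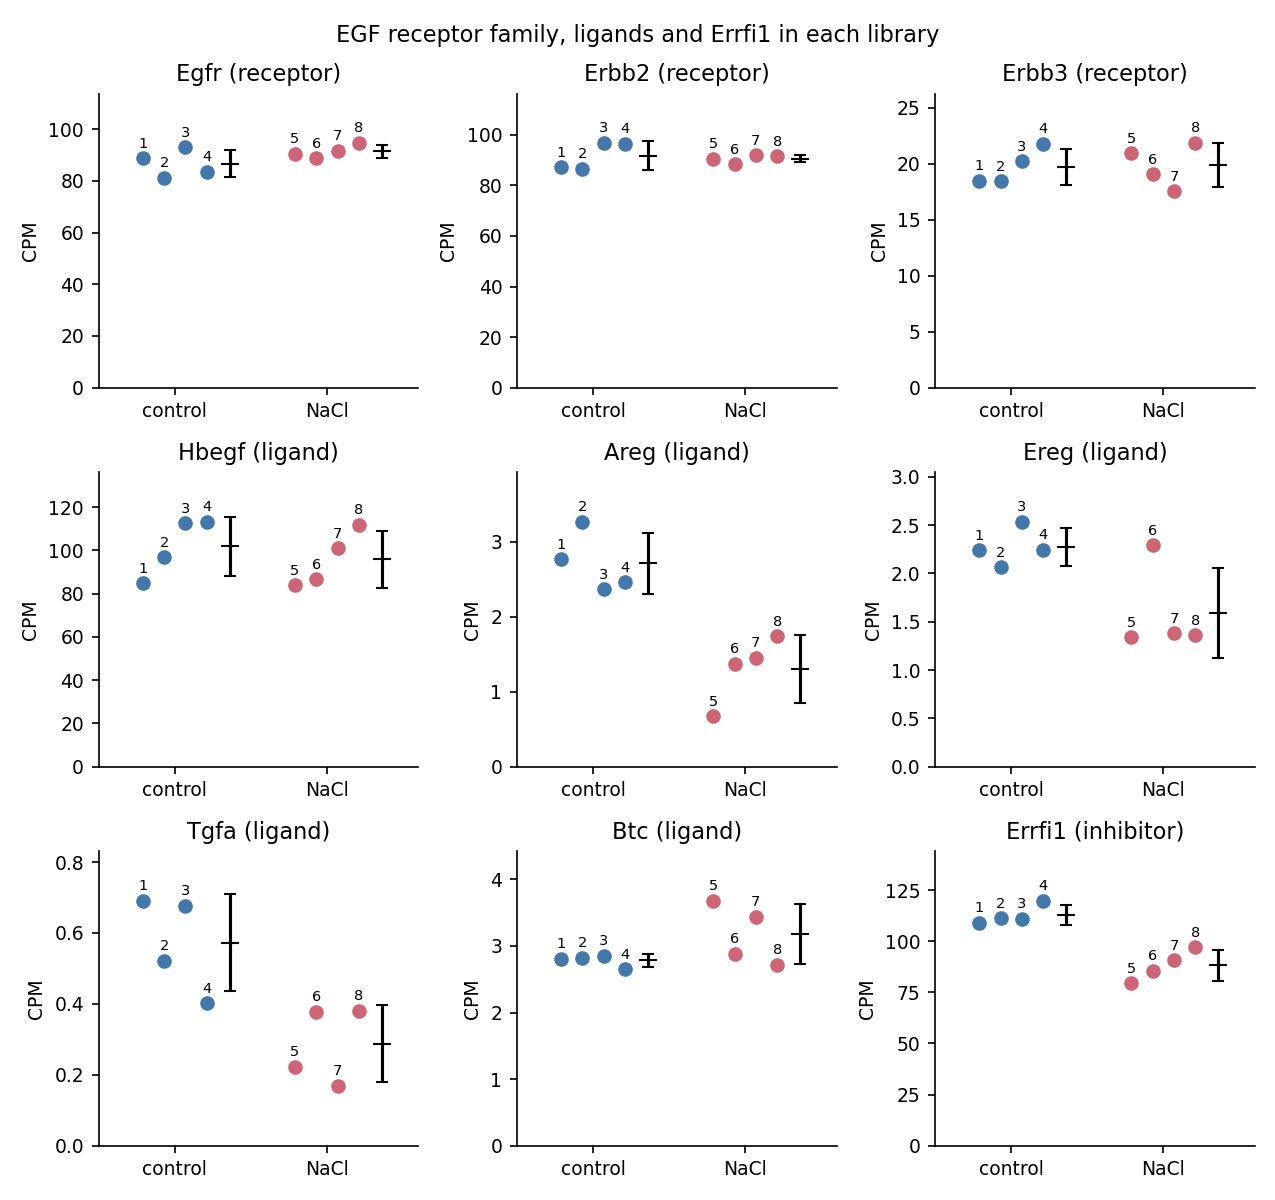
CPM of each gene in each library, numbered as the labels number them, with the mean and SD of each group (n = 4) as a bar beside the points. The control and NaCl libraries are apart for Areg, Tgfa and Errfi1, all lower with NaCl, and overlap for the other 6 genes. Over all genes tested, the groups were apart in 33.4% in either direction and in 16.9% with NaCl lower.

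The receptor genes were compared first, since they set which ligands a cell can answer. Egfr (ENSMUSG00000020122, chr11:16752203-16918158) encodes the receptor of EGF, amphiregulin, TGF-alpha and HB-EGF. It had 88.8, 81.2, 93.2 and 83.6 CPM in control replicates 1 to 4 and 90.4, 88.7, 91.7 and 94.9 CPM in NaCl replicates 5 to 8. The groups overlapped, and the log2 fold change was 0.08 with a 95% interval from -0.02 to 0.17 (SE 0.044; edgeR adjusted p = 0.199). Erbb2 (ENSMUSG00000062312, chr11:98412470-98437716), the partner without a ligand, had 87.1, 86.6, 96.9 and 96.5 CPM in control and 90.5, 88.5, 91.98 and 91.5 CPM in NaCl libraries. All NaCl values lay inside the control range, and the log2 fold change was -0.02 (95% interval -0.11 to 0.07; adjusted p = 0.783). Mien1, with 31.2% as many counts, overlaps the end of Erbb2 on the opposite strand, but their transcripts share no stretch of at least 75 bases at 98% identity. Erbb3 (ENSMUSG00000018166, chr10:128567523-128589652) encodes the neuregulin-binding partner. It had 18.5, 18.4, 20.2 and 21.8 CPM in control and 20.95, 19.1, 17.5 and 21.9 CPM in NaCl libraries, with a log2 fold change of 0.01 (95% interval -0.16 to 0.18; adjusted p = 0.938). For Egfr and Erbb3 the interval reached at most 0.18 up, and for Erbb3, the widest, 0.16 down.

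Erbb4, the receptor of the family that the member rule leaves out, was near the level of Egfr. It averaged 93.4 ± 9.12 CPM in control and 95.6 ± 5.62 CPM in NaCl libraries (SD, n = 4 each), which is 7.56 and 7.74 CPM per kb. Its log2 fold change was 0.03 (95% interval -0.11 to 0.17; edgeR adjusted p = 0.735).

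Of the 5 ligand genes Areg alone passed the test. Areg (ENSMUSG00000029378, chr5:91139599-91148432) encodes amphiregulin, a ligand of EGFR. Its counts were 132, 138, 98 and 104 in control against 24, 58, 60 and 73 with NaCl, which is 2.77, 3.27, 2.37 and 2.46 CPM against 0.670, 1.37, 1.45 and 1.74 CPM. Every NaCl library lay below every control library, and NaCl replicate 5 was the lowest. Areg therefore stood at 0.486 times its control level, and the log2 fold change was -1.04 (SE 0.24, adjusted p by edgeR = 0.00262). Without NaCl replicate 5 the log2 fold change was -0.84 and the adjusted p-value 0.00438.

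Ereg (ENSMUSG00000029377, chr5:91074622-91093646) encodes epiregulin and lies 45952 bases before Areg on the same strand. Its counts were 107, 87, 105 and 95 in control against 48, 97, 57 and 57 with NaCl, or 2.24, 2.06, 2.54 and 2.25 CPM against 1.34, 2.29, 1.38 and 1.36 CPM. NaCl replicate 6 sat among the controls, and the other 3 NaCl libraries were below all of them. The log2 fold change was -0.51 (SE 0.21; 95% interval -0.95 to -0.06), and the edgeR adjusted p-value of 0.0721 did not pass. Of 19 alternatives 1 called Ereg, the fit without NaCl replicate 6, where the value was -0.74 and the edgeR adjusted p-value 0.0106. Leaving out any other single library gave adjusted p-values of 0.0872 to 0.159, and adding the labels' numbers 1 to 8 to the model as a slope gave 0.55. The antisense gene Gm19610 overlaps Ereg, shares 141 bases with it and had 37.1% as many counts, so the counts of Ereg are uncertain where strand was not kept.

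Tgfa (ENSMUSG00000029999, chr6:86195223-86275719) encodes TGF-alpha, which binds EGFR. Its counts were 33, 22, 28 and 17 in control and 8, 16, 7 and 16 in NaCl libraries, or 0.692, 0.522, 0.677 and 0.402 CPM against 0.223, 0.378, 0.170 and 0.381 CPM. The groups did not overlap, a pattern found with either sign in 33.4% of all genes tested. The log2 fold change was -0.98, but at these counts its 95% interval ran from -1.79 to -0.17, and the edgeR adjusted p-value was 0.0581. Of 18 alternatives 3 called Tgfa, among them the edgeR fit without control replicate 4, the lowest control (adjusted p = 0.0475). Leaving out any other single library gave adjusted p-values of 0.0605 to 0.158, and the fit with the library number from 1 to 8 gave 0.602. Tgfa shares 119 bases with Gm43917, which is annotated on the opposite strand.

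Hbegf (ENSMUSG00000024486, chr18:36504927-36515805) encodes HB-EGF, a ligand of EGFR and ERBB4, and was the ligand transcript with the highest level. It had 84.8, 96.8, 112 and 113 CPM in control and 83.8, 86.6, 101 and 112 CPM in NaCl libraries. Values ran over nearly the same range in both groups, and the log2 fold change was -0.09 (SE 0.13; 95% interval -0.39 to 0.22; edgeR adjusted p = 0.662). In each group the libraries with the 2 lower numbers lay below those with the 2 higher numbers. With that number centred within its group as a term in the fit, the log2 fold change was -0.09 with an adjusted p-value of 0.0422. With the number from 1 to 8 as a linear term it was -0.68 with an adjusted p-value of 6.32e-09. All control libraries have lower numbers than all NaCl libraries, so a steady shift along the number and the NaCl effect are only partly separable. The labels do not say what the number stands for.

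Btc (ENSMUSG00000082361, chr5:91357261-91402994) encodes betacellulin, a ligand of EGFR and ERBB4, and lies 208828 bases beyond Areg on the opposite strand. It had 2.81, 2.82, 2.85 and 2.65 CPM in control and 3.68, 2.89, 3.44 and 2.72 CPM in NaCl libraries. Of the NaCl libraries 3 lay above all controls and replicate 8 among them. The log2 fold change was 0.19 (95% interval -0.13 to 0.51; edgeR adjusted p = 0.359). The tested ligand genes of this stretch of chromosome 5 had values of -0.51 for Ereg, -1.04 for Areg and 0.19 for Btc, of which that of Areg passed the test. Epgn, the epigen gene between Mthfd2l and Ereg, was not analysed here. Mthfd2l, the nearest tested gene on the far side of Ereg, had 0.10 (adjusted p = 0.245).

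Errfi1 (ENSMUSG00000028967, chr4:150853919-150868892), the feedback inhibitor, had 109, 111, 111 and 120 CPM in control and 79.5, 85.5, 90.7 and 97.0 CPM in NaCl libraries. The highest NaCl library was below the lowest control. The mean went from 113 ± 4.84 to 88.2 ± 7.45 CPM (SD, n = 4 each), a fall to 0.782 times the control level, and the log2 fold change was -0.35 (SE 0.053, adjusted p by edgeR = 1.04e-04). With that same linear term over libraries 1 to 8 the log2 fold change was -0.62 (adjusted p = 1.64e-08). Of the tested genes, 8.81% had a lower log2 fold change than Errfi1 and 1.23% a lower one than Areg.

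**Figure D3:**
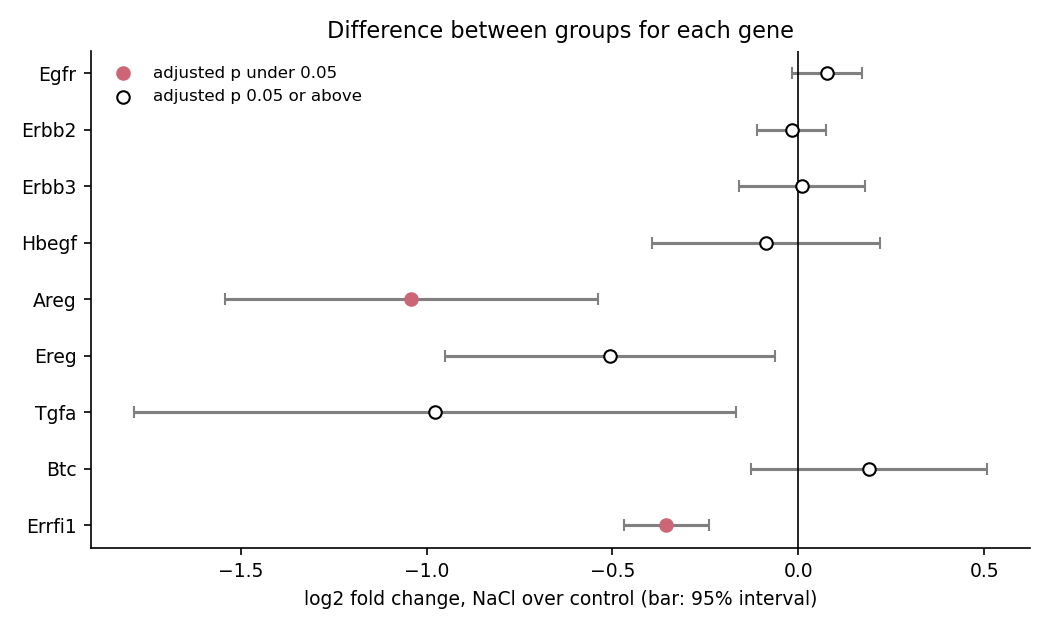
Log2 fold change of each gene, NaCl over control, with its 95% interval from edgeR's quasi-likelihood fit. Filled points mark Areg (-1.04) and Errfi1 (-0.35), and the intervals of the receptor genes are narrow and include 0.

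The genes most like Areg and Egfr, among tested genes whose log2 CPM averaged 3 or more, were then looked up by the root mean square difference of log2 CPM, centred on each gene's mean, over the 8 libraries. This limit leaves out genes as scarce as Areg itself. Among 10111 genes above it, Fosl1, Mt2 and Ppp1r3b were nearest to Areg, with differences of 0.191, 0.238 and 0.28 on the log2 scale. Their log2 fold changes were -1.06, -0.995 and -0.58. The group difference is part of this measure, so it favours genes with similar fold changes. Among 10110 genes, Gaa, Fbrsl1 and Rnf111 were nearest to Egfr, at 0.0253, 0.0306 and 0.0311, with log2 fold changes of 0.11, 0.06 and 0.07.

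Other genes of the pathway were taken from 6 lists of 97 genes, of which 95 had a row and all 95 were tested. Of these, 13 were called higher and 23 lower, 37.9% in all beside the 34.1% of the whole table. In the list of other ligands 1 of 4 tested genes fell and none rose. This was Nrg1, which encodes neuregulin 1, a ligand of ERBB3 and ERBB4. It had 73.3, 70.1, 71.4 and 73.9 CPM in control and 54.3, 56.8, 55.7 and 58.7 CPM in NaCl libraries. The groups were well apart, and the log2 fold change was -0.36 (SE 0.041; edgeR adjusted p = 4.37e-06). Egf itself was scarce, with 1.16 ± 0.265 and 1.47 ± 0.408 CPM (SD, n = 4 each) and an adjusted p-value of 0.36.

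Genes for the release of ligands from the membrane were called in both directions, 2 of 14 higher and 5 lower. Over all genes tested 16.9% were called higher and 17.2% lower, and the list's median log2 fold change was -0.03. Adam17, the main sheddase of amphiregulin and TGF-alpha, had 102 ± 2.96 CPM in control and 105 ± 3.82 CPM in NaCl libraries (SD, n = 4 each). Its log2 fold change was 0.04, with a 95% interval from -0.04 to 0.12 (edgeR adjusted p = 0.404). Adam10, the main sheddase of betacellulin and EGF, had a log2 fold change of -0.05 and did not pass either. The genes that fell by at least 1.5-fold were the metalloprotease genes Adam12, Adam8 and Adam19 and the inhibitor gene Timp1. Adam12, which can shed HB-EGF, fell by 1.76 on the log2 scale, from 17.4 ± 0.770 to 5.14 ± 0.331 CPM. Adam8 fell by 1.28, Adam19 by 1.21 and Timp1 by 0.78 on that scale, and Adam19 had -2.12 with the library number from 1 to 8 in the fit. Timp3, which encodes an inhibitor of ADAM17, rose by 1.32 on the log2 scale, with means of 289 ± 42.8 CPM in control and 719 ± 43.97 CPM with NaCl (adjusted p = 8.12e-05). Of the iRhom genes, whose products carry ADAM17 to the surface, Rhbdf2 rose by 0.29 on the log2 scale (adjusted p = 5.46e-04) and Rhbdf1 had 0.12 and did not pass (adjusted p = 0.0603).

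Of 21 receptor partners and degradation genes, 7 were called higher and 3 lower, beside 16.9% and 17.2% of all genes tested, and the median log2 fold change was 0.05. Muc1, a membrane mucin that can bind EGFR, rose by 1.83 on the log2 scale, with means of 39.7 ± 3.97 CPM in control and 141 ± 7.75 CPM with NaCl (SD, n = 4 each, edgeR adjusted p = 1.68e-10). Lrig1, which encodes a membrane inhibitor of the family, rose by 0.28 and Ptprj, a receptor phosphatase gene, by 0.44 on the log2 scale. The ubiquitin ligase genes Cbl and Cblb had values of 0.06 and 0.05 and did not pass. Hgs, of the endosomal sorting machinery, had the lowest value of the list at -0.17 (edgeR adjusted p = 0.011). It had -0.35 with the library number from 1 to 8 in the fit, and limma on the authors' normalized values did not call it (adjusted p = 0.0615).

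In the list of adaptors and the RAS-ERK cascade 2 of 22 genes were called higher and 3 lower, none by 1.5-fold, and the median log2 fold change was -0.03. This is 22.7% called in all, beside 34.1% of all genes tested. Nras was lowest at -0.32 (edgeR adjusted p = 1.23e-06). Of 16 genes of the PI3K-AKT branch and other effectors, 2 were called higher and 3 lower, which at 31.2% is close to the 34.1% of all genes tested. Pik3r1, a regulatory subunit gene of PI3K, fell by 0.35 and Pik3r2, its paralogue, rose by 0.15 on the log2 scale. In the fit with the library number from 1 to 8 Pik3r1 had -0.73 and the call of Pik3r2 was lost (0.07, edgeR adjusted p = 0.451).

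Among listed transcripts known to follow ERK activity, all calls were downward in the fit with group as the only term. The list was written with earlier results of these data known. Of 18 ERK feedback inhibitors and ERK-dependent transcripts 8 were called lower and none higher, beside 17.2% called lower in the whole table, and their median log2 fold change was -0.15. In the fit with the library number from 1 to 8, 11 were called lower, beside 1770 of the 14024 genes tested. In the fit with centred numbers 1 was called higher, beside 2945 of 14024. Dusp5, a nuclear ERK phosphatase gene, fell by 1.12 on the log2 scale, with means of 22.4 ± 0.908 CPM in control and 10.3 ± 0.820 CPM with NaCl (SD, n = 4 each, edgeR adjusted p = 6.51e-09). Fosl1, an AP-1 subunit gene, fell from 18.8 ± 1.44 to 9.01 ± 1.99 CPM, and was the gene nearest to Areg among those above the limit of expression. Etv4, an ETS factor gene, fell by 0.61 and Spry1, a Sprouty inhibitor gene, by 0.31 on the log2 scale. Spry1 lost its call in 2 of 19 alternatives, the edgeR fit without NaCl replicate 6 (adjusted p = 0.054) and limma on the authors' normalized values (0.0583), and had -0.76 with the library number from 1 to 8 in the fit. The change was not shared by the whole list. Dusp6, the cytoplasmic ERK phosphatase gene, had 0.21 (adjusted p = 0.334), Spry2 had 0.03 (0.782), Spry4 had -0.11 (0.637) and Ccnd1, the cyclin D1 gene, had 0.03 (0.563).

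**Figure D4:**
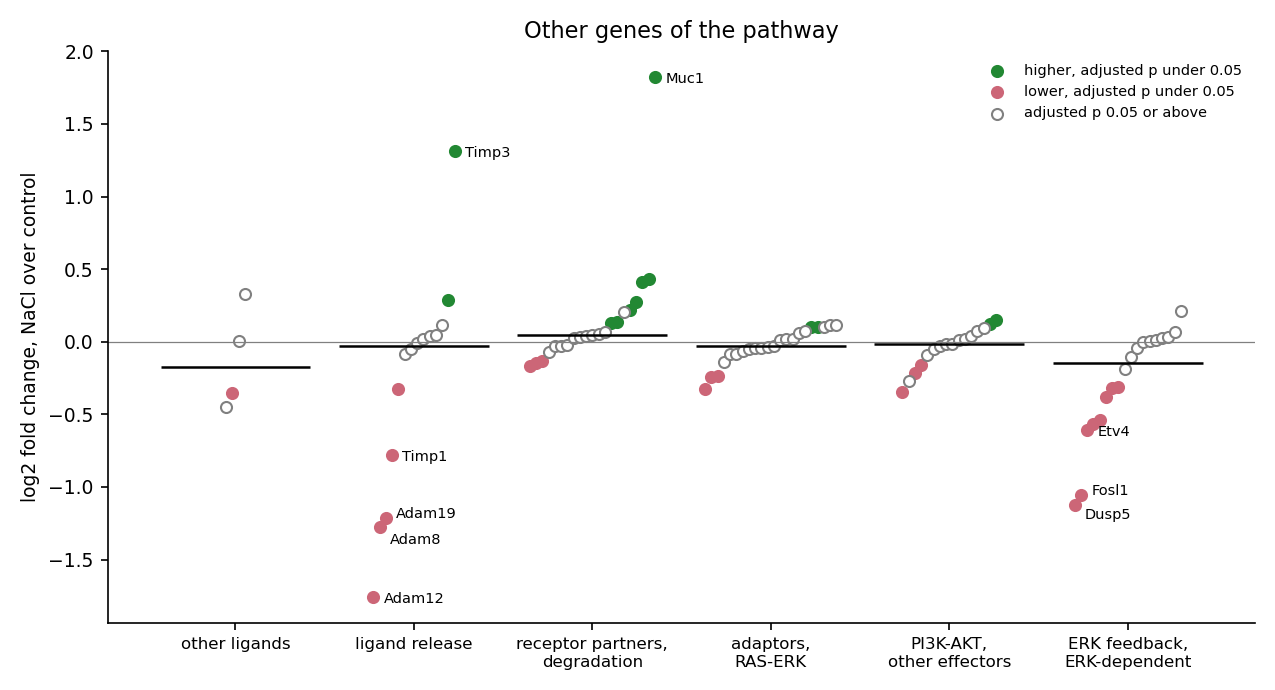
Log2 fold change, NaCl over control, of the 95 tested genes of the 6 pathway lists, each point a gene and each bar the median of its list. Genes called with at least 1.5-fold change are named, from Muc1 at 1.83 to Adam12 at -1.76, and no gene of the RAS-ERK and PI3K-AKT lists is among them.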

How the data were processed

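RNA from 8 libraries was measured. Per the submitters' processing notes, Trim Galore 0.6.7, STAR, DESeq2 1.34.0 and the mm10 build were used. The counting program and strandedness are not given in the sources used here. The authors' deposited table of raw counts was tested. The deposited normalized signal equals the count divided by a factor per library (0.864 to 1.145). With edgeR 4.0.16 in R 4.3.3, genes were filtered (filterByExpr, minimum count 10), scaled by TMM, and fitted with group as the only term. The quasi-likelihood F test gave Benjamini-Hochberg adjusted p-values over all tested genes, with calls under 0.05. Lengths, positions and overlaps came from GENCODE M21 (GRCm38), shared sequence from blastn 2.17.0 (at least 75 bases at 98% identity), and promoters from RefSeq. Log2 CPM used a prior count of 2.

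The genes, pathway lists and tests were chosen with earlier results of these data known. Genes of the lists were named where they were called with an absolute log2 fold change of at least 0.58 and a mean of at least 1 CPM, or were the highest or lowest called gene. A gene that this rule names is not reported here. Lrig1, Ptprj, Pdgfrb, Rhbdf1, Rhbdf2, Adam17, Adam10, Cbl, Cblb, Dusp6, Spry2, Spry4, Ccnd1, Egf, Erbb4 and Mthfd2l were added after their values were seen. Alternatives were other scalings and filters, DESeq2 1.42.0, limma-voom (limma 3.58.1), limma on the authors' normalized values plus 1, thinning to the smallest library, library number terms, leaving out each library, an adjusted p threshold of 0.01, and the longest transcript as length.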

Additional observations from a re-analysis of the deposited data

Results flagged for a closer look

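The highest or lowest library of each group was compared with the other 3 for the 9 genes and for the total counts, in 20 groups of values, where chance would mark about 1. In 3 of them a library stood apart. For Ereg this was NaCl replicate 6 at 2.294 CPM, beside 1.339 to 1.381 CPM in the rest of its group. For total counts it was control replicate 1 at 47.57 M, beside 41.77 to 42.73 M in the other controls, and NaCl replicate 5 at 35.29 M, beside 41.37 to 42.39 M in the rest of its group.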

How the results depend on the processing

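Over 19 alternatives each, Areg (log2 fold change -1.47 to -0.84) and Errfi1 (-0.62 to -0.31) kept their direction and call, and Egfr (0.04 to 0.11) and Btc (0.11 to 0.45) kept their direction and were never called. No paired analysis was made, because the labels name no pairs of control and NaCl libraries. Whether libraries were paired is not stated. At an adjusted p under 0.01, 3145 genes were called, 1545 higher and 1600 lower, in place of 4789, 2371 and 2418.

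Tgfa was called by limma on the authors' normalized values (-0.98, adjusted p = 0.0419) and after thinning (-1.14, 0.036). It had no value with at least 10 counts in every library. Leaving out single libraries gave -1.14 to -0.79 for Tgfa, -0.74 to -0.44 for Ereg, -0.17 to -0.03 for Hbegf, -0.0476 to 0.0064 for Erbb2 and -0.0423 to 0.0645 for Erbb3, so both receptors could change sign without a call. With library numbers centred, Hbegf had -0.0889, 5 genes of the RAS-ERK list were lower and 1 ERK feedback gene was higher, in a fit that called 3085 of all genes lower and 2945 higher. With numbers 1 to 8, Hbegf had -0.6777, Erbb2 -0.1606 and Erbb3 -0.18, neither receptor called (edgeR adjusted p = 0.11 and 0.401). In that fit 1 PI3K-AKT gene was higher, beside 1612 of all genes. The number of RAS-ERK genes called higher was 0 with limma on the authors' values, 1 after thinning and 0 to 1 without single libraries. For PI3K-AKT genes called higher it was 1, 1 and 1 to 2. Of all genes, 2011 were called higher with limma on the authors' values and 2294 after thinning, in place of 2371. Other ligands called lower were 1 to 2 without single libraries. The calls over all genes moved too, for example to 2204 higher and 2253 lower without control replicate 1. Without control replicate 2 they were 1972 and 2099. The cause of these shifts was not tested.

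Per kb of the longest transcript, control levels were 37.07 CPM for Errfi1, 35.25 for Hbegf, 8.49 for Egfr, 0.691 for Btc and 0.127 for Tgfa. Low counts limit the ligands: Tgfa had at most 33 counts in a library. Intervals cover the spread between these libraries.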
